A study of Rattus norvegicus with 16 samples.

Results

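RNA levels in the frontal cortex of rats on a high fat diet were compared with those of rats on chow, none of which had been injected. The comparison holds 8 of the 16 RNA-seq libraries in the series, chosen by their stated treatment: HF 5 to 8 from rats on the high fat diet and chow 1 to 4 from rats on the chow diet. The rats were male and of the outbred Sprague Dawley strain, 11 weeks old when they were assigned to a diet, and they ate it for 7 weeks before they were killed by decapitation. No allele, transgene or drug distinguished the groups. The other 8 libraries came from animals on the high fat diet that were injected into the abdomen for 10 days, with saline buffer (HF_PBS, 4 libraries) or with the DNA methyltransferase inhibitor 5-AzaD (5-aza-2′-deoxycytidine) in that buffer (HF_5AzaD, 4 libraries). They are used here as levels, in the filter on the loci tested and to estimate the spread. In 1 alternative the HF_PBS libraries were also compared with chow. The labels name the diets but not their composition, and do not say that the libraries of a group came from separate animals, so p-values reflect only how far these libraries differ, which may be technical.

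The frontal cortex receives hormonal signals of feeding and energy stores, such as insulin, leptin and glucocorticoids, although the main centres of appetite lie in the hypothalamus and hindbrain. Its neurons and glia differ in what they burn and store: astrocytes make most of the brain's apolipoprotein E and cholesterol, and neurons depend on oxidative phosphorylation. Diets rich in fat are known from rodent work for their effects on hypothalamic inflammation, on glial cells and on the stress axis. The comparison asks which of these systems differed in cortical RNA when diet was the only labelled difference.

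RNA levels are given as deposited, in FPKM (sequenced fragments relative to transcript length and to the library's total), so levels of different genes can be compared per length. Differences between diets are HF minus chow after taking log2(FPKM + 0.5), a scale that shrinks the change of genes near the floor. Of 28168 loci, 14824 averaged at least 1 FPKM across the 16 libraries with a usable status in each, and these were tested with limma. Runx1 (1.0003 FPKM) was the named locus just inside this limit and Mark2 (0.999 FPKM) the one just outside. Absolute depth is unknown. The smallest steps between low values put the relative depth of the HF libraries at 32.5 ± 2.74% of that of chow 2, against 64.2 ± 26.0% for the chow libraries including chow 2 itself (SD, n = 4 each; two-sided exact permutation p = 0.0286, the smallest that 4 against 4 allows). Without any 1 HF library that p was 0.0571. Low FPKM values are therefore less precise in HF than in most chow libraries. Chow 3 (38.7%) lay close to HF 5 (36.4%), and without chow 2 the group difference was -19.7 percentage points in place of -31.7. Each estimate is the commonest ratio of low values to those of chow 2, and 5.83% of the loci used shared it in HF 5 and 6.55% in chow 1. In the other libraries compared with chow 2 that share was 14.3% (chow 3) to 18.8% (chow 4), so the estimates for HF 5 and chow 1 are less firm. The libraries carried the markers of the labelled tissue. The glutamate transporter gene Slc17a7 of cortical excitatory neurons lay at 446 to 823 FPKM in HF and 604 to 719 FPKM in chow, and the cortical transcription factor gene Tbr1 (28.5 to 59.6 FPKM in HF, 46.2 to 51.1 FPKM in chow) was present in all 8. Hoxb3, a gene of hindbrain and spinal cord, reached at most 0.0256 FPKM in HF and 0.0145 FPKM in chow.

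No locus passed the test. At an adjusted p under 0.05, limma called 0 of 14824 loci (0.0%), and the lowest adjusted p of any locus was 0.682. At an unadjusted p under 0.05 there were 1020 loci (6.88%), 470 higher (3.17%) and 550 lower (3.71%) in HF. In 1030 loci (6.95%) the 4 HF and 4 chow values did not overlap, with HF above chow in 442 (2.98%) and below it in 588 (3.97%). HF was higher at any p in 7150 loci (48.2%), and the median difference of all loci was -0.01. The precision was enough to bound most loci. The 95% interval of the difference lay inside a 2-fold change either way for 12751 loci (86.0%) and inside a 1.5-fold change for 61.5%, with a median half-width of 0.35. Fitted differences past 1.5-fold were found in 799 loci (5.39%) and past 2-fold in 188 (1.27%).

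The HF libraries varied more among themselves than the chow libraries did. The median SD of a locus over the 4 libraries was 0.21 (log2) in HF and 0.13 in chow, and 76.6% of loci had the larger SD in HF. Pairs of HF libraries correlated at 0.946 to 0.956 across loci, HF with chow libraries at 0.942 to 0.972 and pairs of chow libraries at 0.965 to 0.984, so that the median HF library was no closer to another HF library (0.951) than to a chow library (0.960). Loci are not independent replicates, and these correlations are descriptions. HF 8 was more than 2-fold above every other uninjected library in 122 loci, against 12 for HF 5, 24 for HF 6 and 4 for HF 7, and 3 to 9 for a chow library. Loci more than 2-fold below every other library were most frequent in HF 6 (52), with 32 in HF 8, 24 in HF 5, 21 in HF 7 and 1 to 11 in a chow library. Relative depth was lower in HF, as given above, and its part in the wider spread was not tested.

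**Figure D1:**
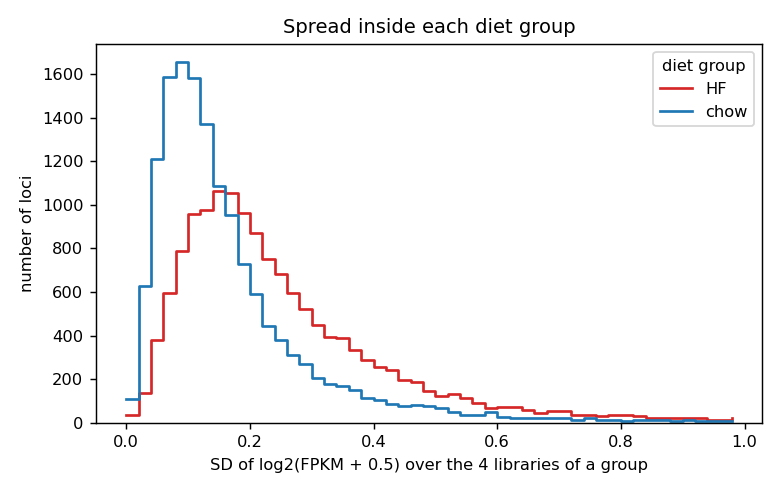
Spread inside each diet group over the loci tested. The horizontal axis is the SD of log2(FPKM + 0.5) over the 4 libraries of a group and the vertical axis the number of loci per step of 0.02, up to an SD of 1; the HF curve lies to the right of the chow curve, with medians of 0.21 and 0.13.

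Of the genes with HF wholly above chow, the 12 with the lowest unadjusted p are given first. None passed the test: all 12 had an adjusted p of 0.682 (limma). The matrix gene Col5a2, which encodes a chain of fibrillar collagen V, had 6.52, 3.23, 3.73 and 4.6 FPKM in HF 5 to 8, against 2.42, 2.3, 1.73 and 2.34 FPKM in chow 1 to 4. HF 5 was the highest library and the lowest HF value lay above the highest chow value, with a difference of 0.86 (SE 0.2). Agrn encodes agrin, a heparan sulfate proteoglycan of basement membranes and synapses, and had 33.7, 28.6, 29.8 and 32.4 FPKM in HF 5 to 8, against 21.8, 22.4, 22.1 and 27.1 FPKM in chow 1 to 4. Its HF values were close together and chow 4 lay nearest to them, with a difference of 0.41 (SE 0.0964). The G protein subunit gene Gnb4 had 4.37, 4.04, 4.35 and 7.29 FPKM in HF 5 to 8, against 1.62, 2.69, 1.8 and 3.15 FPKM in chow 1 to 4. HF 8 was the highest and chow 4 again the nearest chow library (difference 0.97 (SE 0.236)).

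Nppc encodes C-type natriuretic peptide, a local signalling peptide, and had 14.7, 18.4, 16.2 and 10.7 FPKM in HF 5 to 8, against 3.61, 6.81, 3.68 and 9.26 FPKM in chow 1 to 4. The chow libraries fell into a low pair (chow 1 and 3) and a higher pair (chow 2 and 4), and the difference was 1.36 (SE 0.371). The receptor gene Gipr, for the gut hormone GIP that is released after meals, had 5.93, 1.88, 2.63 and 4.94 FPKM in HF 5 to 8, against 0.68, 1.5, 1.01 and 1.51 FPKM in chow 1 to 4. It was low in all libraries, with HF 5 and HF 8 highest and HF 6 only just above the chow range (difference 1.30 (SE 0.375)). Ntrk3, the gene of the neurotrophin receptor TrkC, had 31.1, 26.4, 23.5 and 24.5 FPKM in HF 5 to 8, against 18.5, 17.8, 16.3 and 21 FPKM in chow 1 to 4. HF 5 was highest and chow 4 nearest to HF (difference 0.50 (SE 0.139)).

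Mlxipl encodes ChREBP, a transcription factor that switches on lipid synthesis genes when glucose is plentiful. It had 2.39, 1.35, 2.07 and 2.09 FPKM in HF 5 to 8, against 0.905, 0.94, 0.82 and 1.18 FPKM in chow 1 to 4, a difference of 0.75 (SE 0.211) at a level near the limit of the test. Cpsf1, a subunit of the complex that cleaves and polyadenylates RNA, had 12.4, 12.5, 12.4 and 12.5 FPKM in HF 5 to 8, against 10.4, 10.6, 9.97 and 11.2 FPKM in chow 1 to 4. Its 4 HF values were nearly identical and the difference was small, at 0.24 (SE 0.0631). Of the others, 3 were Ndor1 (a reductase of iron-sulfur protein assembly, 0.51), Begain (a protein of the postsynaptic density, 0.30) and Snrpa (a subunit of the U1 spliceosome particle, 0.33, with a lesser locus of the same symbol at 0.05 and overlapping groups).

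Of the genes with HF wholly below chow, the 12 with the lowest unadjusted p included 1 member of the glucocorticoid list (Tsc22d3) and 1 of the immediate early gene list (Nfil3). All 12 had an adjusted p of 0.682 (limma), so none passed. Nfil3 encodes a transcription factor of the circadian clock's output that is also induced by activity, and had 5.02, 5.04, 5.73 and 7.44 FPKM in HF 5 to 8, against 9.07, 7.7, 11.4 and 9.76 FPKM in chow 1 to 4. HF 8 was the highest HF library and chow 2 the lowest chow library, only just apart, and the difference was -0.67 (SE 0.131). Tsc22d3 encodes GILZ, a mediator of glucocorticoid action, and had 33.6, 33.1, 40 and 32.3 FPKM in HF 5 to 8, against 54.5, 50.1, 55 and 52 FPKM in chow 1 to 4. The gap between the groups was wide and the values inside each were close, with a difference of -0.60 (SE 0.143).

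Chga, the gene of the secretory granule protein chromogranin A, had 82.6, 83.5, 93.2 and 93.5 FPKM in HF 5 to 8, against 119, 110.1, 117 and 105 FPKM in chow 1 to 4. Its groups were tight and the difference was -0.36 (SE 0.0893). Gria4, an AMPA receptor subunit gene, had 30.5, 31.7, 29.8 and 22.9 FPKM in HF 5 to 8, against 49.9, 38.4, 45.3 and 33.6 FPKM in chow 1 to 4. HF 8 was lowest and chow 4 nearest to HF (difference -0.53 (SE 0.135)). Pip5k1b makes the lipid kinase that produces PIP2 at membranes, and had 8.71, 10.3, 13.9 and 8.3 FPKM in HF 5 to 8, against 22.3, 19, 21.8 and 16.3 FPKM in chow 1 to 4. Again HF 5 and HF 8 were lowest and chow 1 and 3 highest, with a difference of -0.93 (SE 0.226).

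Hbegf encodes a growth factor of the EGF family and had 1.85, 2.33, 1.82 and 2.61 FPKM in HF 5 to 8, against 6.05, 5.26, 5.25 and 3.11 FPKM in chow 1 to 4. Chow 4 stood below the other chow libraries and close to HF, with a difference of -1.01 (SE 0.255). The remaining genes below chow were Nedd9, a scaffold of integrin signalling (-0.61), Map3k14, the kinase of the non-canonical NF-kappa B pathway (-0.72), Arl5b, a small GTPase (-0.53), Tm7sf3 (-0.38), Sh3bgrl2 (-0.60) and RGD1305235 (-0.45). Over the 24 genes of both directions, leaving out any 1 of the 8 libraries changed no sign. Their selection for groups that do not overlap fixed this in advance.

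**Figure D2:**
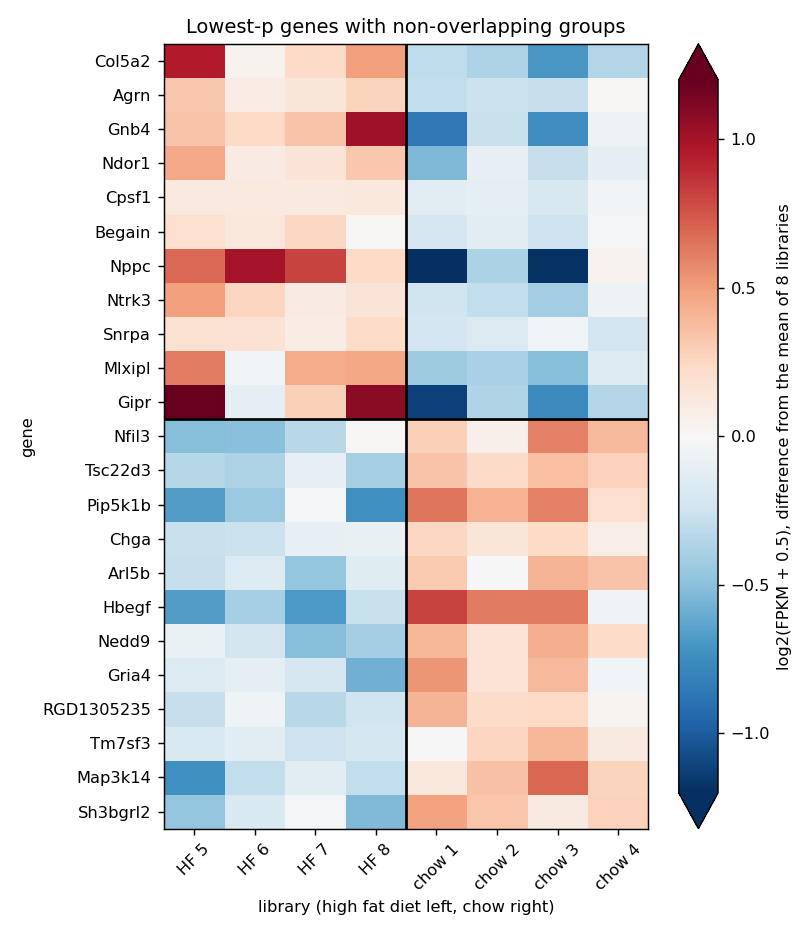
Genes with the lowest unadjusted p among those whose groups do not overlap, 11 higher and 12 lower in HF (23 of the 24 are shown). Columns are libraries, HF 5 to 8 on the left and chow 1 to 4 on the right, and colour is log2(FPKM + 0.5) less the mean of the 8; within the chow columns, chow 4 is often the palest, nearest to HF, as for Nppc and Hbegf.

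The library nearest to the other diet group was not spread evenly over these loci. Among the 1030 loci whose groups do not overlap, chow 4 was the chow library nearest to HF in 566 (55.0%), against 213 for chow 2, 151 for chow 1 and 100 for chow 3. On the other side HF 6 was the nearest to chow in 378 (36.7%), HF 7 in 294, HF 5 in 204 and HF 8 in 154. Without chow 4 the share of loci whose groups do not overlap was 17.2%, in place of 6.95%, without HF 6 it was 16.5%, and without HF 7 it was 14.7%. Leaving out any library raises this share, since fewer values overlap less often, and the smallest was 8.01%, without chow 3.

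The injected groups ate the same high fat diet, and some of the 24 genes had HF-like and others chow-like levels in them. Col5a2 lay at 5.19 ± 1.2 FPKM in HF_PBS and 4.36 ± 0.767 FPKM in HF_5AzaD (SD, n = 4 each), like the HF level of 4.52 ± 1.45 FPKM and above the chow level of 2.20 ± 0.318 FPKM. Pip5k1b, at 8.54 ± 2.54 FPKM in HF_PBS and 11.5 ± 3.57 FPKM in HF_5AzaD, was also near HF. Chga, however, lay at 115 ± 12.4 FPKM in HF_PBS and 116 ± 7.67 FPKM in HF_5AzaD, near the chow mean of 113 FPKM rather than the HF mean of 88.2 FPKM. Nfil3 lay at 8.27 ± 0.817 FPKM in HF_PBS and 8.32 ± 0.501 FPKM in HF_5AzaD, between the 5.81 ± 1.14 FPKM of HF and the 9.49 ± 1.55 FPKM of chow. Diet and injections differ together between chow and the injected groups, so the part of each cannot be told apart there.

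The glucocorticoid response genes were lower on balance in HF, although none passed the test. Of 24 genes listed, 21 were tested: 17 were lower and 4 higher (19.0%, against 48.2% of all loci), with a median difference of -0.35 against -0.01 for all loci. At an unadjusted p under 0.05 there were 5 of the 21, all lower, against 3.71% of all loci. The summed level of the 21 was 276 to 381 FPKM in HF and 423 to 488 FPKM in chow, and did not overlap. Each library was given a score, the average over members of how far its log2 value lay from that member's 8-library mean. It was -0.41, -0.21, 0.00 and -0.02 in HF 5 to 8, against 0.09, 0.16, 0.06 and 0.32 in chow 1 to 4. This was the only 1 of the 42 lists whose scores lay wholly below those of chow, against 3.97% of single loci. The gap was narrow, from 0.00 in HF 7 to 0.06 in chow 3. Without HF 5 the median was -0.22, 6 of 21 members were higher and 3 had an unadjusted p under 0.05. Without another library it was -0.51 (HF 7) to -0.26 (chow 1), with 3 to 6 at an unadjusted p under 0.05, the 3 without HF 6 or chow 4. Besides Tsc22d3, the feedback inhibitor of EGF receptor signalling Errfi1 had 8.54, 8.81, 9.76 and 10.6 FPKM in HF 5 to 8, against 14.9, 15.3, 11.9 and 14 FPKM in chow 1 to 4. All 4 HF libraries were below chow (difference -0.55 (SE 0.158)). Pdk4, a kinase that turns off pyruvate oxidation during fasting, had 1.12, 0.964, 1.75 and 2.38 FPKM in HF 5 to 8, against 2.39, 3.31, 2.36 and 5.25 FPKM in chow 1 to 4. Both groups spread widely and overlapped slightly, with a difference of -0.89 (SE 0.385). Sgk1, a kinase induced by corticosteroids, had 16, 19.4, 26.1 and 41.8 FPKM in HF 5 to 8, against 38.4, 45.8, 33.4 and 56.7 FPKM in chow 1 to 4. HF 8 overlapped with chow and HF 5 to 7 lay below it (difference -0.81). Fkbp5, a co-chaperone that dampens the receptor and a standard target of it, had 12.7, 19.8, 14.8 and 15.8 FPKM in HF 5 to 8, against 13, 15.1, 15 and 15.9 FPKM in chow 1 to 4. Its groups overlapped fully, with a difference of 0.08 (SE 0.17) and a 95% interval of -0.29 to 0.44.

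Immediate early genes, which neurons switch on within minutes of activity, also had lower HF values in most members. Of 26 tested, 20 were lower and 6 higher, with a median of -0.32, and 6 had an unadjusted p under 0.05, all lower. Over all loci, 3.71% were lower at that p. Fos, a transcription factor gene and the standard mark of recent activity, had 6.64, 4.05, 6.98 and 30.2 FPKM in HF 5 to 8, against 20.8, 12, 38.7 and 34 FPKM in chow 1 to 4. HF 8 was as high as the chow libraries and the other HF libraries lay below all of them, and in chow the libraries 3 and 4 were the highest. The difference was -1.40 (SE 0.574), with a 95% interval of -2.63 to -0.17 (adjusted p = 0.696, limma). Arc, whose protein acts at active synapses, had 21.5, 17.7, 40.7 and 91.8 FPKM in HF 5 to 8, against 61.9, 55.8, 139 and 123 FPKM in chow 1 to 4. The order was the same, with HF 8 inside the chow range (difference -1.33 (SE 0.552), adjusted p = 0.696). Gadd45b, an activity-induced gene of DNA demethylation and stress, had 7.38, 5.87, 7.19 and 11.4 FPKM in HF 5 to 8, against 10.1, 9.93, 12.7 and 12.5 FPKM in chow 1 to 4, a difference of -0.51 (SE 0.196). The list scores were -0.32, -0.63, -0.33 and 0.48 in HF 5 to 8, against -0.05, -0.14, 0.41 and 0.58 in chow 1 to 4. Without HF 8 the median was -0.61, 3 of 26 members were higher and 10 had an unadjusted p under 0.05. That number was 2 without HF 5 and 1 without HF 6, chow 3 or chow 4, at medians of -0.30 to -0.27.

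The promoters of several of these genes hold the same short motif. The core of the cAMP response element, TGACG, through which the factor CREB switches on genes in active neurons, was searched on both strands in RefSeq promoters of the rat build GRCr8, from 250 bases before to 50 bases after each start. It is part of the full palindrome TGACGTCA. Of the 26 immediate early genes tested, 19 had a promoter in the table, and 13 of these (68.4%) held TGACG, against 6 of 17 glucocorticoid response genes (35.3%), 5 of 14 circadian clock genes (35.7%) and 23.0% of all 27457 symbols with a promoter. The full palindrome was in 4 of the 19 immediate early genes, 1 of the 17 glucocorticoid response genes, 0 of the 14 clock genes and 2.00% of all symbols. AGAACA, a half-site of the glucocorticoid receptor, was searched likewise and was in 1 of the 17 glucocorticoid response genes (5.88%), 1 of the 19 immediate early genes (5.26%), 2 of the 14 clock genes (14.3%) and 21.6% of all symbols. A symbol counted if any of its promoters held the motif. The set of all symbols was not limited to genes tested here, as the list members were, so its shares are not a matched background. A match describes letters and not a bound site, and nothing in these data measures binding. Shown are 2 genes with HF wholly below chow, Nfil3 (chr17:12432126-12432425, plus strand) and Errfi1 (chr5:166606591-166606890, plus strand), and Dusp1 (chr10:17184603-17184902, plus strand), which holds the full palindrome, with each TGACG or its reverse complement in capitals.
Nfil3: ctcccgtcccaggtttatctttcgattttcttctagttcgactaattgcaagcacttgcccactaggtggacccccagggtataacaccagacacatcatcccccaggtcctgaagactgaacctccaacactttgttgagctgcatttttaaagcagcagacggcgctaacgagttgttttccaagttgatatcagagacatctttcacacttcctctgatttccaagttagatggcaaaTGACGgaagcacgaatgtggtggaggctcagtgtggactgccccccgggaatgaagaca
Errfi1: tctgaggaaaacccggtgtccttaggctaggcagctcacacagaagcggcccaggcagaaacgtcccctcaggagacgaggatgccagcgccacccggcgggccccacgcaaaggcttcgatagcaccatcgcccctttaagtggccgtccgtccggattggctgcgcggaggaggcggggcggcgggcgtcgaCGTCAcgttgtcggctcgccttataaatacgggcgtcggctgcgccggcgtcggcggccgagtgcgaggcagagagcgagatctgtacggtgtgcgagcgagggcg
Dusp1: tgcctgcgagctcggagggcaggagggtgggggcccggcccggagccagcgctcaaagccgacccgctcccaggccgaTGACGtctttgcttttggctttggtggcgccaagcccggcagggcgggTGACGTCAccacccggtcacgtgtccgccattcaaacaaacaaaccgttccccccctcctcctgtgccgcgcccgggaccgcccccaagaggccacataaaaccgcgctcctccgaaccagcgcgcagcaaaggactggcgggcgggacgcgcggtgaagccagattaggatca
Dusp1, the gene of a phosphatase that ends MAP kinase signals and a member of both lists, had 13.8, 15.9, 27.2 and 48.2 FPKM in HF 5 to 8, against 33.7, 35.9, 52 and 44 FPKM in chow 1 to 4. Like Fos, it had HF 8 inside the chow range and the other HF libraries below it (difference -0.80 (SE 0.356)).

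**Figure D3:**
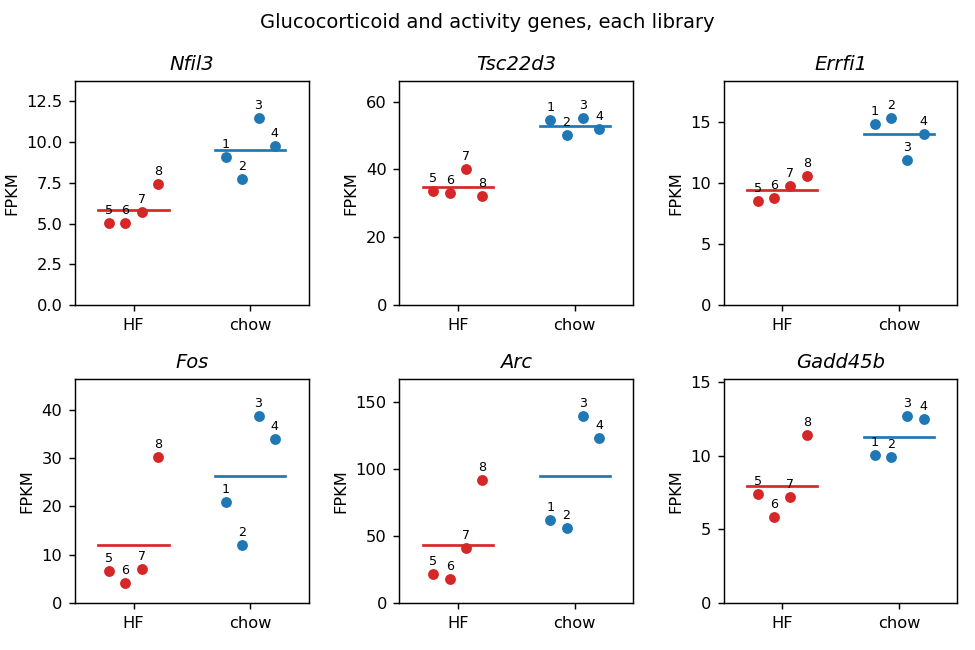
FPKM in each library for 3 genes with HF wholly below chow (Nfil3, Tsc22d3, Errfi1) and 3 activity genes (Fos, Arc, Gadd45b), with HF to the left of chow, the library number above each point and the group mean as a line. In the activity genes HF 8 lies among the chow libraries, as for Fos at 30.2 FPKM, while HF 5 to 7 lie below them.

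Circadian clock genes showed no common direction (8 of 19 higher, median -0.02), although 6 had an unadjusted p under 0.05 and all 6 were lower in HF. Over all loci, 3.71% were lower at that p. Of these 6, Per1 also counts in the glucocorticoid list and Nfil3 in the immediate early gene list, so the count is not independent of those given above. The times of death are not among the labels used here. Arntl encodes BMAL1, the activator at the centre of the clock, and had 10.8, 14.6, 12.4 and 11.1 FPKM in HF 5 to 8, against 17, 15.5, 18.2 and 14.9 FPKM in chow 1 to 4, wholly below chow (difference -0.41 (SE 0.177)). Per1, a gene of the clock's negative feedback, had 14.2, 12.4, 11.3 and 26.7 FPKM in HF 5 to 8, against 22.2, 18.7, 29.2 and 33.7 FPKM in chow 1 to 4, and HF 8 overlapped with chow (difference -0.72 (SE 0.237)). Cry1, a repressor of the clock, had 4.38, 3.7, 4.4 and 5.2 FPKM in HF 5 to 8, against 6.18, 6.22, 5.7 and 5.18 FPKM in chow 1 to 4 (difference -0.37 (SE 0.129)). Nr1d1, which encodes the repressor REV-ERB alpha, had 38.3, 46.6, 56.4 and 38.5 FPKM in HF 5 to 8, against 36.7, 26.6, 45.9 and 41.2 FPKM in chow 1 to 4, and its groups overlapped.

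Microglia markers shared a direction: the 21 members tested, of 24 listed, were each higher in HF, with a median of 0.25. None passed the test and 1 had an unadjusted p under 0.05, where 3.17% of all loci were higher at that p. Cx3cr1, the receptor for the neuronal chemokine fractalkine, had 16.3, 18.3, 16.1 and 13.5 FPKM in HF 5 to 8, against 11.6, 10.9, 11.2 and 11.5 FPKM in chow 1 to 4. The groups lay apart and the difference was 0.48 (SE 0.22) (adjusted p = 0.706, limma). Csf1r, the receptor on which microglia depend for survival, had 22.4, 23, 25 and 21.5 FPKM in HF 5 to 8, against 16, 17.2, 15.8 and 17.6 FPKM in chow 1 to 4, also wholly above chow (difference 0.45 (SE 0.243)). The homeostatic genes P2ry12 (0.11), a purine receptor, and Tmem119 (0.08) overlapped between the groups. In tissue RNA, a different number of cells and a different amount of RNA per cell cannot be told apart. The summed level of the 21 markers was 388 to 515 FPKM in HF and 343 to 416 FPKM in chow, and the scores were 0.19, -0.06, 0.32 and 0.08 in HF 5 to 8, against -0.06, -0.06, -0.14 and -0.27 in chow 1 to 4. HF 6 lay level with chow 1 and 2. Leaving out any 1 library left 19 to 21 members higher. Inflammation genes did not share the direction, with 7 of 15 higher and a median of -0.03, nor did interferon response genes, with 12 of 22 higher and a median of 0.02.

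Astrocyte markers were mixed (11 of 17 higher, median 0.07, and 6 of 17 with a median of -0.04 without HF 7), but 4 of them had HF wholly above chow, against 2.98% of all loci. At an unadjusted p under 0.05 (limma) 0 members were higher and 1 was lower, against 3.17% and 3.71% of all loci. Gfap, an intermediate filament gene that is raised in reactive astrocytes, had 110.2, 138, 163 and 102 FPKM in HF 5 to 8, against 81.2, 87.8, 84.4 and 96.7 FPKM in chow 1 to 4. HF 7 was highest and HF 8 closest to chow, with a difference of 0.53 (SE 0.262) and an unadjusted p of 0.0638. The water channel gene Aqp4 had 61.8, 82.4, 73.6 and 60.9 FPKM in HF 5 to 8, against 57.5, 53.3, 44.9 and 55.2 FPKM in chow 1 to 4 and lay wholly above chow (0.39), as did the gap junction gene Gja1 (0.25) and Ntsr2, a neurotensin receptor gene of astrocytes (0.30). The other gap junction gene Gjb6 lay the other way, with 17.6, 24, 34.3 and 16.2 FPKM in HF 5 to 8, against 34.6, 34, 30 and 27.8 FPKM in chow 1 to 4. Fabp7, a fatty acid binding protein of astrocytes and progenitors, had 86, 56.2, 88.3 and 104 FPKM in HF 5 to 8, against 33.3, 50.1, 42.2 and 46.5 FPKM in chow 1 to 4. Each HF library was above each chow library, with a difference of 0.93 (SE 0.362) (adjusted p = 0.694, limma). Fabp7 is not in the astrocyte list but in the brain lipid transport list, where 11 of 22 members were higher (median 0.02). Oligodendrocyte precursor markers had 8 of 11 members higher (median 0.17, and 0.07 without HF 6). Pdgfra, the growth factor receptor that defines these cells, had 10.7, 12.8, 11 and 12.1 FPKM in HF 5 to 8, against 7.32, 9.6, 7.5 and 8.48 FPKM in chow 1 to 4, wholly above chow (difference 0.48 (SE 0.209)). Myelin markers were level, with 11 of 22 higher and a median within 0.01 of 0. The range of Mbp, the gene of myelin basic protein, was as wide inside a group as between groups, with 1787, 2265, 3197 and 1688 FPKM in HF 5 to 8, against 2396, 3014, 3514 and 2039 FPKM in chow 1 to 4.

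Extracellular matrix and basement membrane genes were higher in 19 of 25 members (76%, against 48.2% of all loci), at a median of 0.15. Of these 6 had HF wholly above chow (Col5a2, Col5a3, Col11a1, Agrn, Sparc and Vcan) and none wholly below. Over all loci the shares were 2.98% above and 3.97% below. Leaving out 1 library left 14 (without HF 7) to 22 members higher, and the median was 0.09 without HF 7, 0.23 without HF 6 and 0.25 without HF 8. Col27a1, a fibrillar collagen gene, had 7.04, 3.56, 8.28 and 6.4 FPKM in HF 5 to 8, against 2.42, 3.27, 2.26 and 4.68 FPKM in chow 1 to 4. HF 6 lay inside the chow range (difference 0.89 (SE 0.237)). Vcan, which encodes the proteoglycan versican of the perineuronal matrix, had 5.2, 4.21, 4.35 and 4.62 FPKM in HF 5 to 8, against 3.16, 3.54, 3.98 and 3.33 FPKM in chow 1 to 4 (difference 0.35 (SE 0.153)). Mural and leptomeningeal markers, of cells that also make collagen, had 8 of 24 members higher, which was 5 without HF 7, 12 without HF 5 and 15 without chow 1 (median 0.08). Their summed level ranged from 472 to 850 FPKM in HF and from 479 to 1694 FPKM in chow, and their part in the matrix differences was not tested.

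Genes of energy metabolism had small median differences. Of 70 nuclear genes for subunits of the respiratory chain, 3 were higher and 67 lower in HF, with a median of -0.15. Only 1 of the 70 was lower at an unadjusted p under 0.05, against 3.71% of all loci. In 5 of the 70 HF lay wholly below chow, against 3.97% of all loci. Cox7b, a subunit of cytochrome oxidase, had 139, 127, 142 and 128 FPKM in HF 5 to 8, against 174, 179, 171 and 153 FPKM in chow 1 to 4. The HF values were tight and lay below chow (difference -0.34 (SE 0.134)). The list scores were 0.04, -0.23, 0.01 and -0.15 in HF 5 to 8, against 0.24, 0.13, 0.08 and -0.13 in chow 1 to 4. They overlapped, with chow 4 the lowest chow library and HF 6 the lowest of all. In glycolysis and glucose transport 6 of 22 were higher (median -0.11). Pfkl, a subunit of the rate-limiting phosphofructokinase, had 65.7, 50.8, 40 and 55.9 FPKM in HF 5 to 8, against 30.8, 35.9, 29.7 and 41.5 FPKM in chow 1 to 4, with HF 7 inside the chow range (difference 0.61 (SE 0.192)). Ldhb, the lactate dehydrogenase subunit that favours oxidation of lactate, had 409, 462, 566 and 464 FPKM in HF 5 to 8, against 638, 639, 661 and 526 FPKM in chow 1 to 4 (difference -0.38 (SE 0.151)).

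The lipid gene lists did not share a direction, and their median differences were small. Fatty acid and glycerolipid synthesis genes had 11 of 18 higher (median 0.06), with Mlxipl as the only member at an unadjusted p under 0.05. Cholesterol synthesis genes had 19 of 25 higher (76%, against 48.2% of all loci) but a median of only 0.06, and 0 of them were apart. Leaving out 1 library left 15 (without HF 6) to 20 (without chow 3) members higher. Srebf2, the pathway's transcription factor, had 55, 69.9, 54.5 and 49.7 FPKM in HF 5 to 8, against 40.9, 47.2, 51.9 and 56.7 FPKM in chow 1 to 4, with HF 6 highest (difference 0.22 (SE 0.113)). Genes of fatty acid oxidation and PPAR targets had 10 of 24 higher (median -0.04). Bdh1, an enzyme of ketone body use, had 19.3, 16.9, 14.4 and 14.7 FPKM in HF 5 to 8, against 20.1, 22, 23.1 and 19.5 FPKM in chow 1 to 4, wholly below chow by a narrow gap (difference -0.37 (SE 0.138)). Cpt1a, which carries fatty acids into mitochondria, averaged 8.12 ± 2.11 FPKM in HF and 7.01 ± 0.427 FPKM in chow (SD, n = 4 each), with a 95% interval of the difference of -0.23 to 0.57. Apoe, the main lipid carrier of the brain, had a difference of 0.10 with an interval of -0.35 to 0.54.

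Receptors for hormones of feeding had 11 of 19 higher and a median of 0.28, which was -0.02 without HF 8 and 0.12 to 0.42 without another HF library (HF 6 lowest, HF 7 highest). Htr2c, the serotonin receptor gene through which serotonin curbs feeding, had 14.5, 12.5, 7.65 and 43.1 FPKM in HF 5 to 8, against 2.91, 4.12, 2.3 and 5.58 FPKM in chow 1 to 4. HF 8 stood far above the rest and the other 3 HF libraries still lay above chow, with a difference of 2.00 (SE 0.683) (adjusted p = 0.682, limma). Hcrtr1, a receptor of the wakefulness and feeding peptide orexin, had 2.13, 1.83, 1.28 and 1.91 FPKM in HF 5 to 8, against 0.0751, 0.872, 0.238 and 0.534 FPKM in chow 1 to 4. It was near the floor in chow and low in HF (difference 1.36 (SE 0.415)). Adipor2, a receptor for the fat hormone adiponectin, had 18.6, 19.2, 19.5 and 17.3 FPKM in HF 5 to 8, against 23.1, 20.9, 23 and 23.1 FPKM in chow 1 to 4, wholly below chow (difference -0.27 (SE 0.147)). The insulin receptor gene Insr had 6.84, 6.67, 6.52 and 6.73 FPKM in HF 5 to 8, against 6.53, 6.51, 6.97 and 6.82 FPKM in chow 1 to 4. Its groups coincided, and the 95% interval of the difference, -0.24 to 0.23, bounds it well inside 1.5-fold. The merged locus of Lepr and Leprot, which holds the leptin receptor gene and a neighbour that cannot be separated from it here, had a difference of -0.08 with an interval of -0.33 to 0.17. Insulin, mTOR and FoxO signalling genes had 13 of 31 higher and a median of -0.01.

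Protein folding and secretory genes lay slightly lower. In the endoplasmic reticulum stress list 2 of 23 were higher, with a median of -0.07. Herpud1, which helps degrade misfolded proteins, had 24.1, 26.4, 27 and 21.6 FPKM in HF 5 to 8, against 32.3, 32.1, 34.3 and 30.5 FPKM in chow 1 to 4, wholly below chow (difference -0.38 (SE 0.138)). In the heat shock list 5 of 16 were higher (median -0.19). Cryab, the small heat shock protein alpha B-crystallin that is abundant in oligodendrocytes and astrocytes, had 47.2, 52.7, 67.6 and 46.8 FPKM in HF 5 to 8, against 85.1, 106, 116 and 79 FPKM in chow 1 to 4. All HF libraries were below chow (difference -0.84 (SE 0.347)). Chgb, a second granin, had 196, 262, 268 and 208 FPKM in HF 5 to 8, against 291, 309.8, 356 and 297 FPKM in chow 1 to 4, in the direction of Chga (difference -0.43 (SE 0.167)), whereas the granin-related gene Vgf had 95.8, 86.5, 74.5 and 78.1 FPKM in HF 5 to 8, against 68.8, 67.1, 54 and 67.4 FPKM in chow 1 to 4, wholly above chow (difference 0.38 (SE 0.143)).

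The DNA methylation machinery, the target of the inhibitor used in the injected animals, had small differences between the diets. Of 11 tested genes 5 were higher, with a median of -0.01. Dnmt1, the maintenance methyltransferase, had 7.7, 7.19, 6.74 and 8.38 FPKM in HF 5 to 8, against 6.94, 7.09, 7.23 and 7.71 FPKM in chow 1 to 4. The groups overlapped and the 95% interval of the difference was -0.12 to 0.21. Dnmt3a, a de novo methyltransferase, had 6.58, 6.37, 6.1 and 7.07 FPKM in HF 5 to 8, against 6.49, 6.71, 7.39 and 7.79 FPKM in chow 1 to 4 and an interval of -0.29 to 0.08. Mbd6, a gene of the methyl-CpG-binding domain family, was the exception with 10.2, 8.49, 10.4 and 11.1 FPKM in HF 5 to 8, against 6.61, 6.46, 7.56 and 8.15 FPKM in chow 1 to 4, wholly above chow (difference 0.45 (SE 0.171)). Bdnf, the neurotrophin gene, averaged 6.01 ± 2.6 FPKM in HF and 5.59 ± 1.1 FPKM in chow (SD, n = 4 each), HF 5 being highest, and the interval of its difference was -0.56 to 0.65. Cdkn1a, the cell cycle inhibitor gene induced by p53, had a difference of -0.19 and an interval of -0.68 to 0.30.

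Genes with regional patterns in the forebrain separated the libraries in ways that crossed the diet groups. Rorb, a transcription factor gene of layer 4 that is high in sensory cortex, had 5.74, 13.2, 12.8 and 4.92 FPKM in HF 5 to 8, against 21.5, 17.6, 21 and 11 FPKM in chow 1 to 4. HF 5 and HF 8 were lowest, chow 1 and chow 3 highest, and chow 4 lay below HF 6 and HF 7 (95% interval of the difference -1.91 to -0.10). The fast-spiking interneuron gene Pvalb had 87.2, 149, 190.5 and 81.8 FPKM in HF 5 to 8, against 315, 264, 286 and 187 FPKM in chow 1 to 4. Its order was alike, with chow 4 below HF 7 (difference -1.11 (SE 0.559), unadjusted p = 0.0663). Kcnc1, a potassium channel gene that lets such cells fire fast, had 22.3, 36.8, 36.2 and 21.6 FPKM in HF 5 to 8, against 58.6, 50.4, 55.8 and 43.8 FPKM in chow 1 to 4, here with no overlap (difference -0.86 (SE 0.317)). Pvalb and Kcnc1 belong to the interneuron list, in which 15 of 23 members were higher (median 0.17, and -0.02 without HF 8). Kcna1, another potassium channel gene, lay wholly below chow too (-0.73). In the potassium channel list 11 of 33 were higher, with a median of -0.19, which was -0.09 without HF 8 and -0.28 without HF 6. HF lay wholly below chow in 5 of the 33 and wholly above it in 3, against 3.97% and 2.98% of all loci. Kcnn3 (1.00) and Kcnj2 (0.61) were among those above. Gabrd, a GABA receptor subunit gene, had 35.2, 50.4, 54.1 and 41.2 FPKM in HF 5 to 8, against 87.5, 73.5, 85.2 and 52.1 FPKM in chow 1 to 4. Chow 4 lay inside the HF range.

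Other genes ran in the opposite order. Crym, a thyroid hormone binding protein gene listed for deep layers and for claustrum and insula, had 299.97, 157, 95.9 and 229.9 FPKM in HF 5 to 8, against 46.1, 74.7, 51.5 and 152 FPKM in chow 1 to 4. HF 5 and HF 8 were highest, chow 1 and chow 3 lowest, and chow 4 lay with HF 6 (difference 1.31 (SE 0.494)). Wfs1, known from hippocampal area CA1 and upper layers, had 81, 57.4, 37.2 and 125 FPKM in HF 5 to 8, against 29.5, 34.5, 26.6 and 45.2 FPKM in chow 1 to 4 (difference 1.03 (SE 0.475)). Gabra5, a GABA receptor subunit gene high in hippocampus and deep cortex, had 47.1, 32.2, 22.9 and 27.9 FPKM in HF 5 to 8, against 13.2, 20.4, 15.7 and 28.3 FPKM in chow 1 to 4 (difference 0.74 (SE 0.267)). Deep layer markers had 15 of 17 members higher (median 0.39) with a summed level of 679 to 1330 FPKM in HF and 567 to 867 FPKM in chow, whereas upper layer markers had 3 of 14 higher (median -0.21; 482 to 551 FPKM in HF and 539.6 to 606 FPKM in chow). Claustrum and insular markers had 12 of 14 higher (median 0.33; 453 to 972 FPKM in HF and 341 to 461 FPKM in chow). None of the 3 lists had a member at 0 in any of the 8 libraries, and no member passed the test. Without HF 8 the deep layer median was 0.18 (0.24 without chow 1), the upper layer median -0.15 (-0.34 without HF 6) and the claustrum and insular median 0.32. The part of these regional genes in the diet differences named above, several of which have the same order of libraries, was not tested.

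HF 8 stood apart in striatal genes. Drd1, the dopamine receptor gene of the direct pathway of the striatum, had 4.12, 2.7, 1.83 and 45 FPKM in HF 5 to 8, against 1.56, 2.49, 4.27 and 3.54 FPKM in chow 1 to 4. Adora2a, the adenosine receptor gene of the indirect pathway, had 2.34, 4.41, 4.14 and 59.4 FPKM in HF 5 to 8, against 2.76, 2.66, 8.78 and 4.73 FPKM in chow 1 to 4. Tac1, which encodes the peptide substance P, had 19.3, 9.63, 8.53 and 125 FPKM in HF 5 to 8, against 5.57, 5.1, 7.6 and 11.8 FPKM in chow 1 to 4. In each, HF 8 stood far above 7 libraries that overlapped, and the 6 genes in which it lay farthest above the others were Tac1, Rgs9, Drd1, Adora2a, Gpr6 and Drd2. The 18 striatal markers summed to 369 to 1809 FPKM in HF and 485 to 709 FPKM in chow, none was at 0 in any library, and the scores were -0.56, -0.40, -0.35 and 2.15 in HF 5 to 8, against -0.56, -0.38, 0.28 and -0.19 in chow 1 to 4. Their median difference of 0.51, with 13 of 18 higher, became -0.17 without HF 8, with 3 of 18 higher, and 0.76 without HF 5. HF 8 also had the highest scores for the olfactory bulb and subventricular list (1.07, against -0.20 to -0.06 in HF 5 to 7 and -0.27 to -0.12 in chow) and for the hypothalamus list (0.95, against -0.28 to 0.13 in HF 5 to 7 and -0.49 to 0.03 in chow). It was the HF library with the highest activity genes as well, as given above. Without HF 8, limma still called 0 loci, with a lowest adjusted p of 0.128.

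**Figure D4:**
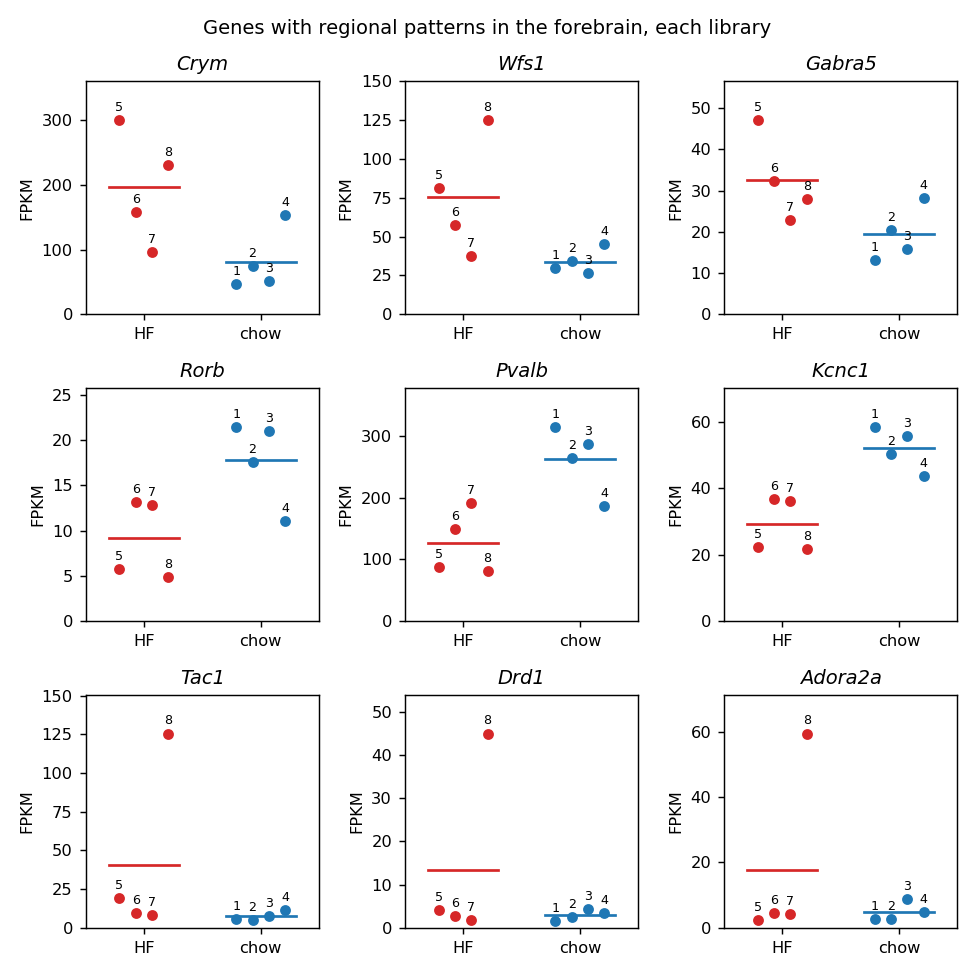
FPKM in each library for 9 genes with known regional patterns, HF to the left of chow, with library numbers above the points and group means as lines. In Crym, Wfs1 and Gabra5 chow 4 is the highest chow library, in Rorb, Pvalb and Kcnc1 it is the lowest, and Tac1, Drd1 and Adora2a are high only in HF 8 among these 8 libraries.

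The other HF libraries had leading genes of their own. In HF 7 these were Nkain4, Dcn, Prodh, Pyroxd2, a class I histocompatibility gene (RT1-A2) and a merged locus; Dcn, a proteoglycan gene of leptomeningeal fibroblasts, had 2.66, 2.87, 11.6 and 4.65 FPKM in HF 5 to 8, against 6.56, 6.49, 3.33 and 3.66 FPKM in chow 1 to 4. HF 6 led in the serotonin receptor gene Htr2a, with 16.3, 33.7, 10.4 and 11.6 FPKM in HF 5 to 8, against 12.7, 13.3, 11.8 and 14.9 FPKM in chow 1 to 4, and in Rab3c, Dok6, Scube1, Atxn1 and RGD1563072. HF 5 led in Rprm, Fxyd6, Gne, Cst6, a microRNA host entry and Ldha, the lactate dehydrogenase subunit that makes lactate, with 164, 100.3, 84.8 and 101 FPKM in HF 5 to 8, against 83.1, 87.2, 78.1 and 98.6 FPKM in chow 1 to 4. Among named genes with a mean of at least 5 FPKM in HF, Cartpt, which encodes a peptide that curbs feeding, was one of the 8 with the widest spread over the HF libraries. It had 0.696, 2.04, 17.3 and 54.6 FPKM in HF 5 to 8, against 14.8, 11.9, 12.6 and 0.921 FPKM in chow 1 to 4, a difference of -0.06 between groups that both spread widely.

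**Figure D5:**
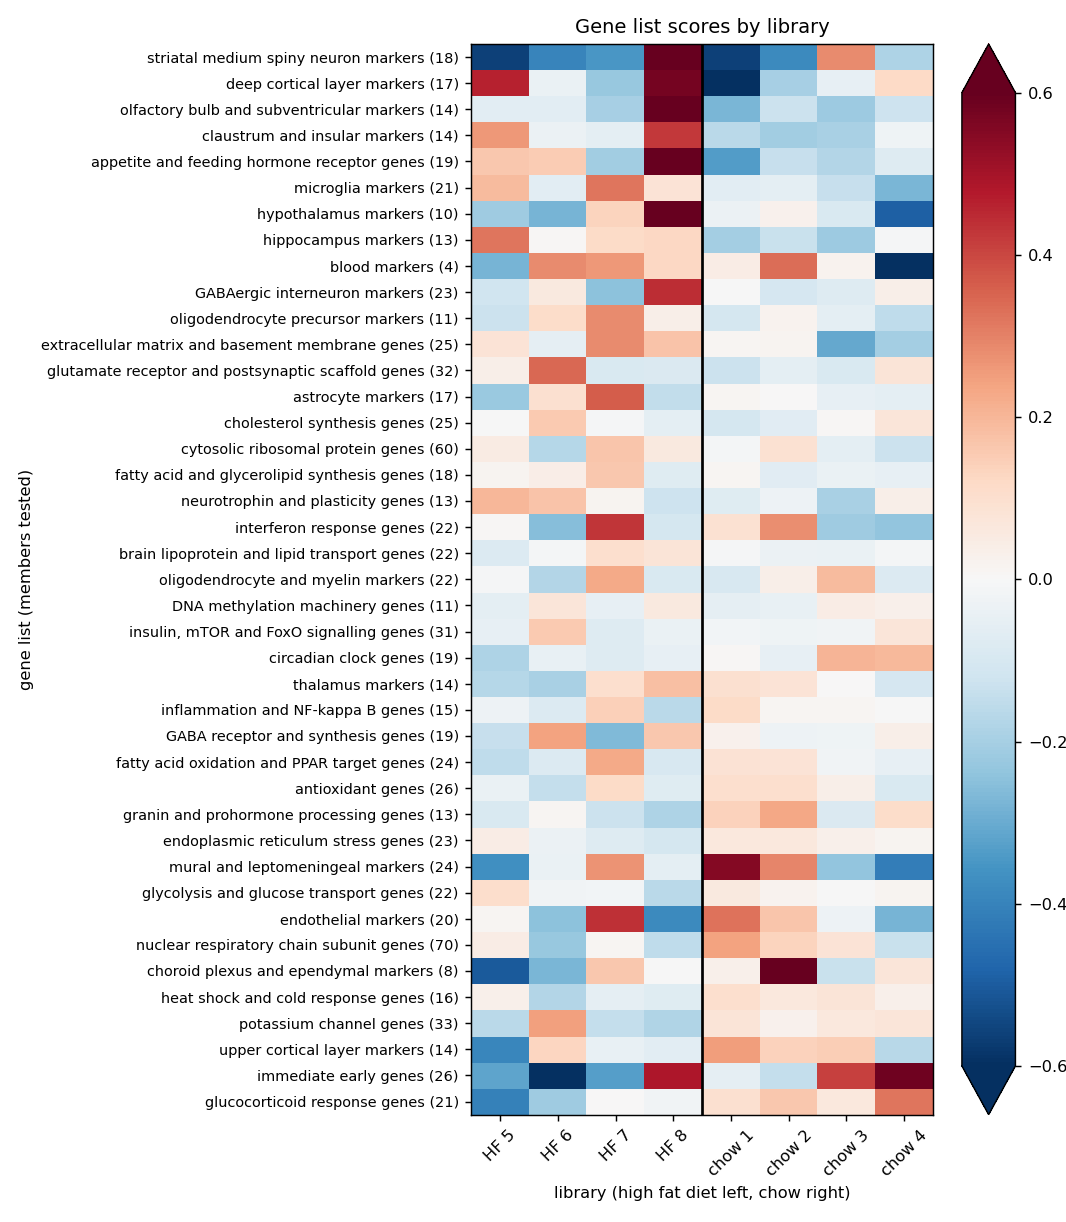
Scores of 41 of the 42 gene lists in each library, HF 5 to 8 on the left and chow 1 to 4 on the right, with lists ordered by their median difference and the number of members tested in brackets. Colour is the mean log2 difference of the members from their mean over the 8 libraries, cut at 0.6 either way; the glucocorticoid row is lower throughout HF, and HF 8 alone is dark red in the striatal, olfactory and hypothalamic rows.

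Of single loci 2.98% had HF wholly above chow, and hippocampus markers were the only 1 of the 42 lists whose HF scores lay so. Their scores were 0.32, 0.01, 0.11 and 0.12 in HF 5 to 8, against -0.21, -0.13, -0.22 and -0.01 in chow 1 to 4, with HF 6 and chow 4 almost level. Of 13 tested 10 were higher, at a median of 0.23, 1 had an unadjusted p under 0.05 and none had HF wholly above chow. The median was 0.14 without chow 2 and 0.35 without HF 8.

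The remaining lists varied in direction, against 48.2% higher and a median of -0.01 for all loci. For ribosomal protein genes 43 of 60 were higher, at a median of 0.06, antioxidant genes 7 of 26 with -0.07, glutamate receptor and scaffold genes 21 of 32 with 0.15 (0.06 without HF 6), and GABA receptor and synthesis genes 9 of 19 with -0.03. Brain lipid transport genes had 11 of 22 higher (median 0.02). Interneuron markers had 15 of 23 higher (median 0.17), neurotrophin and plasticity genes 8 of 13 (median 0.05) and granin and prohormone processing genes 5 of 13 (median -0.07). Thalamus markers had 7 of 14 higher (median -0.02) and hypothalamus markers 7 of 10 (median 0.24). Among vessels and blood, endothelial markers had 7 of 20 higher (median -0.13), choroid plexus and ependymal markers 1 of 8 (median -0.16) and blood markers 4 of 4 (median 0.22). Without HF 8 the medians of interneuron, hypothalamus and endothelial markers were -0.02, -0.03 and 0.03, and without chow 4 only 1 of 4 blood markers was higher (median -0.04). Without any 1 library the medians of these lists ranged from -0.02 to 0.32 for interneuron markers, from -0.03 to 0.38 for hypothalamus markers, from -0.27 (HF 7) to 0.03 for endothelial markers, with 0.02 without chow 1, and from -0.32 (HF 8) to -0.03 (chow 2) for choroid plexus and ependymal markers. No member of any of the 42 lists passed the test over all loci.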

How the data were processed

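Poly-A RNA of the frontal cortex was sequenced on an Illumina instrument, per the labels' protocols. The authors deposited FPKM per merged locus and library with a status for each value. Per the submitters' processing notes, the aligners Bowtie, Bowtie2, TopHat and TopHat2 and the quantifiers Cuffdiff and Cufflinks were named, with build rn5 and no versions. No source states the strand, so overlapping and antisense genes cannot be separated. Values were used as deposited, and 0 per-sample columns came from outside the series. Groups follow the stated treatment of each sample. In the design text HFD means the diet alone, whereas in the titles it marks the HF_PBS animals.

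Leaving out 161 loci whose status was not OK in some library, and those averaging under 1 FPKM, kept 14824 loci, 11033 with a gene symbol. limma 3.58.1 in R 4.3.3 was fitted to log2(FPKM + 0.5) of all 16 libraries with 1 mean per group (12 residual degrees of freedom, variance prior with a trend), and the contrast HF minus chow was adjusted by Benjamini-Hochberg over the 14824 loci with a threshold of 0.05. The procedure was tested on simulated data. Depth was estimated from the commonest ratio between low values of a library and of chow 2. Python 3.11.15 with pandas 2.3.3, numpy 2.4.6 and matplotlib 3.10.9 was used for lists and plots.

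The comparison, the 42 gene lists and the alternatives were chosen with earlier results of these data known. Where several loci share a symbol, the one with the highest mean was used; Car11 and Dbp, Hba1 and Hba2 and similar pairs are merged loci. Genes named are per direction, the 12 of lowest p whose groups do not overlap, up to 4 members per list with the lowest p, the 8 with the largest spread in a group, the 6 farthest above the others per library, and Dnmt1, Dnmt3a, Bdnf, Fos, Arc, Fkbp5, Cdkn1a, Lepr, Insr, Apoe and Cpt1a. Other members (Sgk1, Dusp1, Arntl, Nr1d1, P2ry12, Tmem119, Gja1, Vcan, Col5a3, Sparc, Kcna1) and the tissue markers were chosen after their values were seen. A few genes and 1 list are not reported here. Alternatives were another pseudocount, filter, scaling, set of libraries, weighting and fit, and leaving out each library.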

Additional observations from a re-analysis of the deposited data

Results flagged for a closer look

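In groups of 4 libraries, a library is given here when its gap to the nearest other library, divided by the range of the group, was unusually wide on the log2 scale. Chance gives such a library in about 1 in 20 groups, and 21 of 306 groups examined had one. The groups were the scores of the 42 lists and the values of the genes named, in HF and in chow, and many share genes or libraries, so the flags are not independent. Some of these genes were named because 1 library lay far above the others, as for Drd2, Rgs9, Rprm and Nkain4, or because their spread was large. For such genes the choice itself favours a flag, and the rate of 1 in 20 does not apply.

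In HF 8 the gap made up 0.922 of the HF range for the striatal score, 0.892 for the olfactory bulb and subventricular score, 0.905 for Drd2, 0.836 for Rgs9 and 0.868 for Gnb4. Rgs9 had 4.36, 2.63, 4.5 and 54 FPKM in HF 5 to 8, against 0.894, 2.19, 7.14 and 4.55 FPKM in chow 1 to 4, and Drd2 had 2.23, 2.17, 1.61 and 30.7 FPKM in HF 5 to 8, against 1.08, 1.59, 4.88 and 2.85 FPKM in chow 1 to 4. Both encode proteins of dopamine signalling in the striatum. HF 6 was the highest HF library for the potassium channel score, where the gap was 0.912 of the range, and for the insulin, mTOR and FoxO score, where it was 0.832. HF 5 was the highest for Bdnf (0.874 of the range; 9.9, 4.76, 4.93 and 4.44 FPKM in HF 5 to 8, against 6.22, 5.05, 4.32 and 6.76 FPKM in chow 1 to 4) and for Rprm (0.895), and HF 7 for Nkain4 (0.908). HF 5 was the lowest HF library for Ptgds (0.885).

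Chow 4 was apart from the other chow libraries at the top for Agrn (0.887 of the chow range) and for the insulin, mTOR and FoxO score (0.946), and at the bottom for Ldhb (0.846) and Cartpt (0.913). Chow 3 was lowest for Col5a2 (0.841) and Vgf (0.895), chow 2 was lowest for Adipor2 (0.941), and chow 1 was highest for the inflammation and NF-kappa B score (0.869). For RT1-CE16, which is listed at 0 in 4 of the 8 libraries, the gap was the whole of the HF range (a ratio of 1, HF 6 being highest) and 0.943 of the chow range, chow 1 being lowest.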

How the results depend on the processing

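The count of 0 calls held in each of the 20 alternatives that compare HF with chow, with a lowest adjusted p between 0.0656 (library weights) and 1. It did not hold when the libraries titled HFD (the HF_PBS group by their stated treatment) were taken as the diet group, which gave 4173 calls, and 3007 higher and 3278 lower loci at an unadjusted p under 0.05. Those unadjusted counts (470 higher, 550 lower) became 769 and 927 with no filter, 271 higher with a mean of at least 5 FPKM, 883 and 1080 in a fit on the 8 libraries alone, and 1306 and 1557 with library weights. Leaving out 1 library gave 242 to 610 higher and 279 to 707 lower loci, with fewer higher loci without HF 5 (305), chow 1 (251) or chow 3 (242) and fewer lower ones without chow 1 (330), chow 2 (360) or chow 3 (279). Leaving out 1 library gave non-overlapping values in 8.01% to 17.2% of loci, since fewer values overlap less often. The difference in relative depth was -40.2 to -19.7 percentage points without 1 library, and its exact permutation p was 0.0571 without any 1 HF library.

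Of 672 comparisons of list medians under alternatives, 7 moved by more than the spread between replicates: the glucocorticoid median was -0.51 without HF 7, the heat shock median -0.11 without HF 7, the lipid transport median 0.09 with a mean of at least 5 FPKM and 0.10 without chow 1, the feeding receptor median -0.02 and the hippocampus median 0.35 without HF 8, and the precursor median 0.31 with a mean of at least 5 FPKM. The cause was not tested. The 24 named genes changed sign in 0 of 472 comparisons. Where 1 library was left out, their selection for groups that do not overlap fixed this in advance. Scaling to the upper quartile moved the split at an unadjusted p under 0.05 to 585 higher and 458 lower. A term for the 4 libraries with blurred low values (536 higher, 684 lower), loci with a symbol only (350 higher, 461 lower) and list counts without each library were added after seeing the data. No paired analysis was possible because the HF libraries are numbered 5 to 8 and the chow libraries 1 to 4, which share no number. Depth limits genes near 1 FPKM most, and more in HF.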

Other observations

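Vascular and leptomeningeal genes varied widely among the chow libraries. Ptgds, the prostaglandin D synthase gene of leptomeninges and choroid plexus, had 158, 509, 445 and 489.5 FPKM in HF 5 to 8, against 1243, 724, 285 and 179.7 FPKM in chow 1 to 4, so that chow 1 was highest and HF 5 lowest. Mgp, a matrix protein gene of vessels and meninges, had 22.4, 28, 32.3 and 23 FPKM in HF 5 to 8, against 57.8, 35.8, 28.8 and 24.7 FPKM in chow 1 to 4, and chow 1 was again highest. Ttr, the transthyretin gene of choroid plexus, had 0.644, 3.24, 14.7 and 1.37 FPKM in HF 5 to 8, against 4.33, 35.5, 1.66 and 6.88 FPKM in chow 1 to 4, with chow 2 highest. Class I histocompatibility genes differed between single libraries in both groups: RT1-A1 had 33.6, 33.7, 17.4 and 52.8 FPKM in HF 5 to 8, against 5.1, 120.2, 28.8 and 29.6 FPKM in chow 1 to 4, and RT1-A2 had 9.31, 9.86, 29.1 and 4.09 FPKM in HF 5 to 8, against 18.4, 9.04, 15.9 and 3.69 FPKM in chow 1 to 4. The locus of RT1-CE16 was listed at 0 in HF 5, HF 7, HF 8 and chow 1 and reached 77.7 FPKM in HF 6 and 181 to 259 FPKM in the other chow libraries.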
